A study of Homo sapiens with 16 samples.

Results

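The response of SUM159 cells to the kinase inhibitor YES1i was described gene by gene, from a fit of the SUM159 libraries alone. SUM159 (SUM159PT in the sample titles) is an established human breast cancer line of the triple-negative class, defined by missing oestrogen and progesterone receptors and no HER2 amplification. The labels give it as wild type, grown in Ham's F12. Cells received DMSO, the solvent control (4 libraries), or 8 uM of YES1i, the compound CH6953755 (4 libraries), and poly(A) RNA was taken after 48 h. The design text of the series speaks of transfected cells, while the treatment protocol describes addition of DMSO or YES1i, which is followed here. Of 58735 genes in the deposited count table, 15836 passed a low-count filter in these 8 libraries and make up the genes described here, 12775 of them protein-coding. The fit left out the 8 libraries of MDA-MB-231, the other triple-negative line of the series, which return only where the 2 lines are compared. Genes of the cell cycle, of sterol synthesis and of inflammatory cytokines were given 1 count each, and the account is of everything else. YES1i was given at 1 dose, and RNA was taken at 1 time.

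YES1 is a member of the Src family of tyrosine kinases, which sit under the cell membrane and relay signals from integrins and growth factor receptors. Those signals pass through the RAS and ERK kinases to immediate early genes, and through YAP, TAZ and SRF to genes of the cytoskeleton and the matrix. Kinase signalling also reaches mTORC1, which sets the making of ribosomes and restrains lysosome genes through the MiT/TFE factors. In triple-negative lines of mesenchymal character, such signals are known for supporting growth, spreading and autocrine loops of EGF receptor ligands.

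Total counts ran from 15876171 to 36261542 per library, DMSO replicate 1 being the deepest. A count of 0 allows, at 3 counts, up to 0.0834 to 0.187 CPM (counts scaled to a common library size), counting error only. The series text calls the 4 libraries of a group technical replicates, so p-values measure only the spread between these libraries. The first principal component held 62.1% of the variance and separated the treatments. On the second (10.6%) YES1i replicate 2 lay at 26.7 and YES1i replicate 1 at -21.9, with the other 6 between -14.1 and 13.4. Mitochondrial rRNA took 0.731% ± 0.0749 of counts in DMSO libraries and 1.34% ± 0.0977 in YES1i libraries (SD, n = 4, two-sided exact permutation p = 0.0286, the smallest that 70 regroupings allow, 0.0367 after Benjamini-Hochberg adjustment over 9 measures). The share of lincRNA went from 0.494% to 0.711%, with the same p. All 10 markers of mesenchymal-like triple-negative lines were measured, among them vimentin (VIM, 1902 ± 61.8 to 2379 ± 24.9 CPM) and fibronectin (FN1, 5506 ± 313 to 7042 ± 149 CPM), with CD44, MSN and AXL at 0.38, -0.35 and -0.24, CAV2 at -0.29 and SPARC at 0.03 in log2 fold change. Of 12 luminal markers, E-cadherin (CDH1) and TFF1 had 0 counts in all 8 libraries, while GATA3 went from 10.7 ± 1.97 to 14.6 ± 1.69 CPM and FOXA1 from 1.87 ± 0.396 to 1.29 ± 0.493 CPM. Of 10 leukocyte markers only CD14 was tested, from 0.698 ± 0.127 to 2.32 ± 0.116 CPM, and of 10 endothelial markers 3 were tested, among them KDR at 9.43 ± 0.777 to 17.3 ± 0.726 CPM and ERG at 18.4 ± 0.765 to 13.4 ± 0.933 CPM, with CDH5 at 0 counts, while 9 of 11 fibroblast and pericyte genes were, such as COL1A1.

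In all, 4023 genes rose with YES1i and 4361 fell (edgeR quasi-likelihood test, adjusted p under 0.05), which is 25.4% and 27.5% of those tested. Together 52.9% were called. Sizes of change are log2 fold changes, YES1i minus DMSO, wherever a rise or fall is given without a unit, and levels are in CPM. The median log2 fold change of all tested genes was 0.01. At least 2-fold changes were called upward in 936 genes (5.91%) and downward in 490 (3.09%). Higher genes made up 48.0% of calls, and 63.7% with upper quartile scaling (5500 higher and 3138 lower), which moved the median of all genes to 0.13. In 7500 of the tested genes (47.4%) the groups did not overlap. Counts of list members below are to be read against these shares. The lists left aside had 0 higher and 206 lower of 208 (cell cycle, replication and repair), 4 and 27 of 36 (cholesterol), and 9 and 23 of 43 (cytokines and NF-kB). Among 44 described lists that hold no cell type markers, the median change was highest for circadian clock genes, 1.16, and lowest for proteasome subunits, -0.61. Without YES1i replicate 2, clock genes stood at 13 higher and 5 lower, stress response genes at 19 and 1, ribosomal proteins at 66 and 0, nucleolar factors at 2 and 37, proteasome subunits at 1 and 27 and ERK output at 1 and 15.

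**Figure D1:**
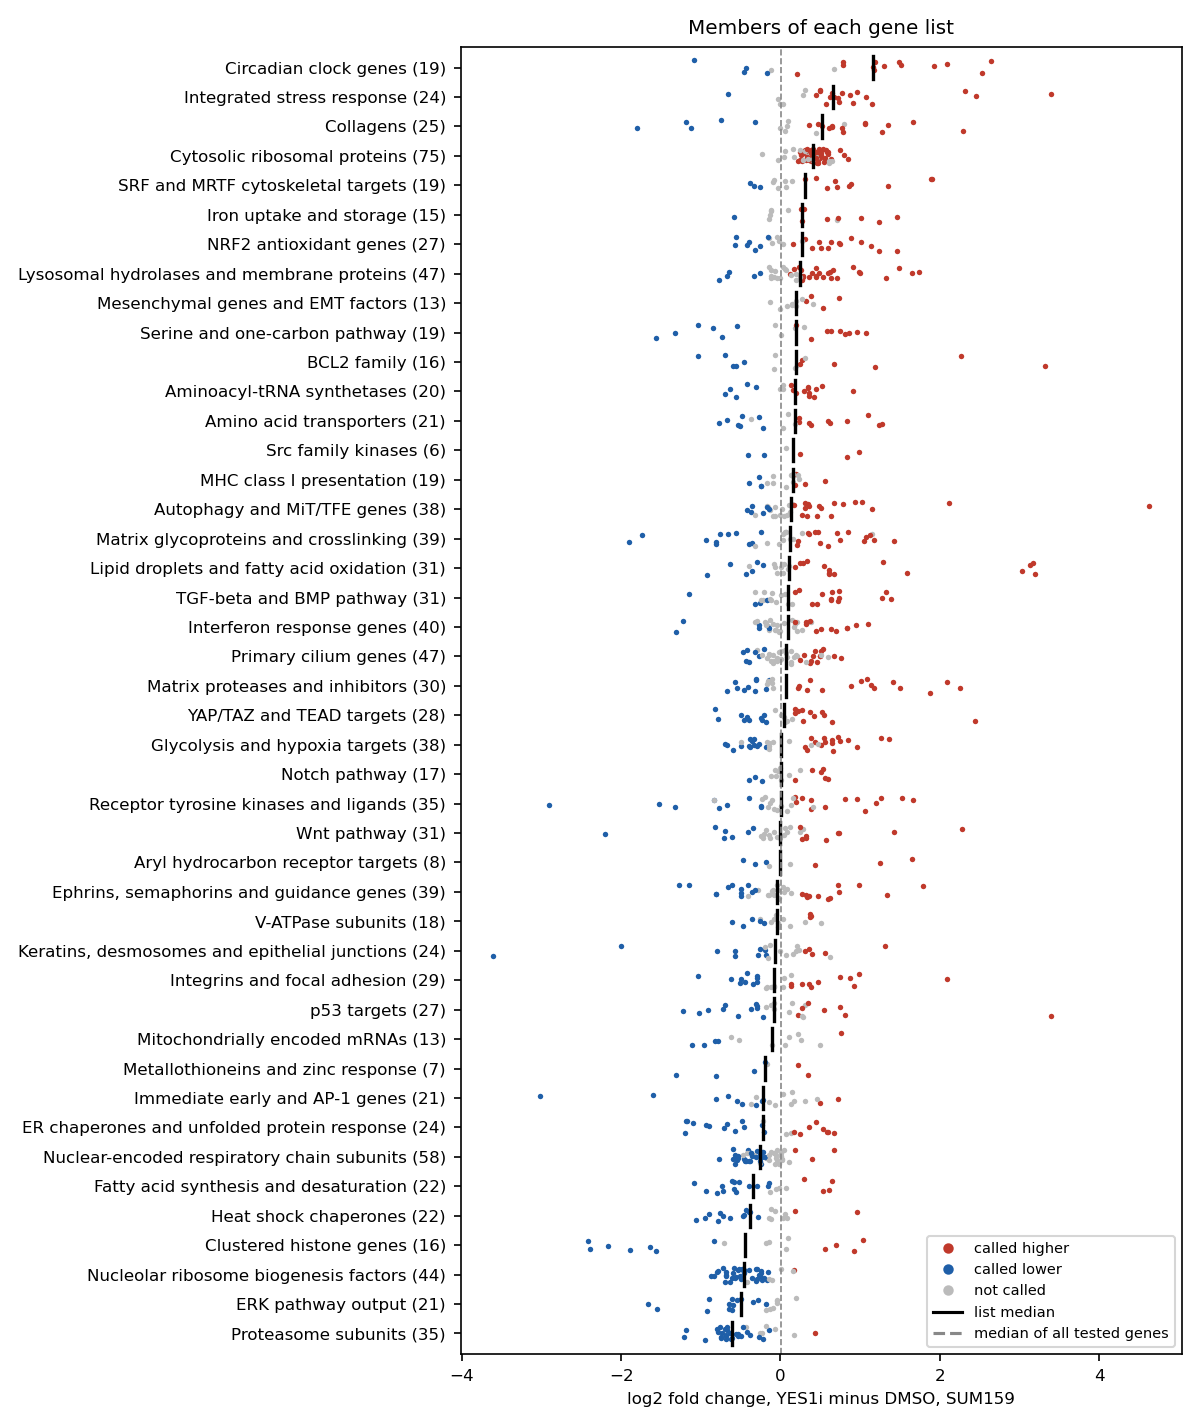
Log2 fold change (YES1i minus DMSO) of every tested member of 44 gene lists, ordered by list median, with the number of tested members after each name. Points are genes coloured by call, black bars are list medians and the dashed line is the median of all tested genes, 0.01. Clock genes stand highest at 1.16 and proteasome subunits lowest at -0.61.

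The drug's target transcript changed little. YES1 (ENSG00000176105, chromosome 18, 721588 to 812546 on hg38) was at 101, 97.9, 95.9 and 104 CPM with DMSO and 77.4, 93.1, 92.7 and 82.9 CPM with YES1i. Every YES1i library was below every DMSO library, at -0.21 ± 0.07 SE on the log2 scale, with adjusted p = 0.0154 by edgeR. The call ended with upper quartile scaling (-0.08, adjusted p = 0.305) and without YES1i replicate 4 (adjusted p = 0.0534). Its relatives moved both ways: LYN fell, at a log2 fold change of -0.41 ± 0.06 SE, and FYN rose, at 0.24 ± 0.07 SE. FRK and BLK, both under 5 CPM, rose by 0.84 and 0.98, the former uncalled without DMSO replicate 1 or YES1i replicate 3 (adjusted p = 0.0665 and 0.0614). SRC itself was at 0.07 ± 0.07 SE (adjusted p = 0.465), called higher only with upper quartile scaling (0.19, adjusted p = 0.0387).

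The largest rises among protein-coding genes outside the lists left aside included lysosome-linked and lipid genes, stress-induced secreted factors and clock factors. The genes named for the largest rises and falls were required to have no overlap between groups, so their separation is not a result. GPNMB, a membrane glycoprotein of melanosomes and lysosomes, was at 0.723, 0.625, 0.803 and 0.402 CPM with DMSO and 17.1, 18.3, 14.1 and 16.4 CPM with YES1i. All YES1i libraries were far above all DMSO libraries, a change of 4.63 ± 0.17 SE on the log2 scale, with adjusted p = 1.30e-11 by edgeR. PAPPA2, a protease that cleaves IGF-binding proteins, followed at 4.04 ± 0.16 SE, from 0.910 ± 0.236 to 15.7 ± 1.58 CPM. IGFBP5, one of the proteins it cleaves, was at 15.7, 10.6, 13.2 and 11.2 CPM with DMSO and 86.1, 87.9, 97.1 and 85.2 CPM with YES1i, with no overlap and a log2 fold change of 2.79 ± 0.10 SE. AOC3, a cell-surface amine oxidase, rose from 1.41 ± 0.0865 to 9.30 ± 1.32 CPM.

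Genes of lipid and fuel metabolism stood beside them. PPARGC1A, the coactivator of mitochondrial and fasting genes, was at 2.64, 2.62, 2.86 and 2.87 CPM with DMSO and 22.5, 26.2, 23.1 and 24.3 CPM with YES1i. The groups lay far apart, at 3.13 ± 0.10 SE in log2 fold change (adjusted p = 7.04e-12). PDK4, the kinase that shuts pyruvate out of mitochondria during fasting, went from 5.54 ± 1.08 to 49.6 ± 3.24 CPM, and PLIN4, a coat protein of lipid droplets, from 1.14 ± 0.286 to 10.6 ± 0.973 CPM. MLXIPL, the carbohydrate-sensing factor ChREBP, rose from 2.38 ± 1.10 to 13.3 ± 2.03 CPM, its DMSO libraries spreading from 1.21 to 3.57 CPM.

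The largest falls included growth signals and epithelial genes. LIPG, the endothelial lipase, was at 13.5, 14.7, 14.3 and 12.7 CPM with DMSO and 1.90, 1.595, 0.966 and 1.26 CPM with YES1i, or -3.27 ± 0.16 SE on the log2 scale, with adjusted p = 2.99e-10 by edgeR. XDH, the xanthine dehydrogenase of purine breakdown, went from 82.1 ± 3.05 to 12.7 ± 1.18 CPM, the tightest of these falls at -2.69 ± 0.08 SE. No library of one group reached the other, as the choice of these genes required. DKK1, a secreted Wnt inhibitor, was at 43.5, 37.9, 44.6 and 43.1 CPM with DMSO and 8.93, 8.21, 10.5 and 9.21 CPM with YES1i, with no overlap and -2.20 ± 0.09 SE. SFN (14-3-3 sigma, an epithelial regulator of cell division) fell from 90.4 ± 5.80 to 23.1 ± 3.91 CPM, and KRT5, the basal keratin, from 11.95 ± 1.98 to 2.95 ± 0.260 CPM. TMEM40, the neuropeptide precursor VGF and the lipid transporter MFSD2A had log2 fold changes of -2.25, -1.92 and -1.90.

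**Figure D2:**
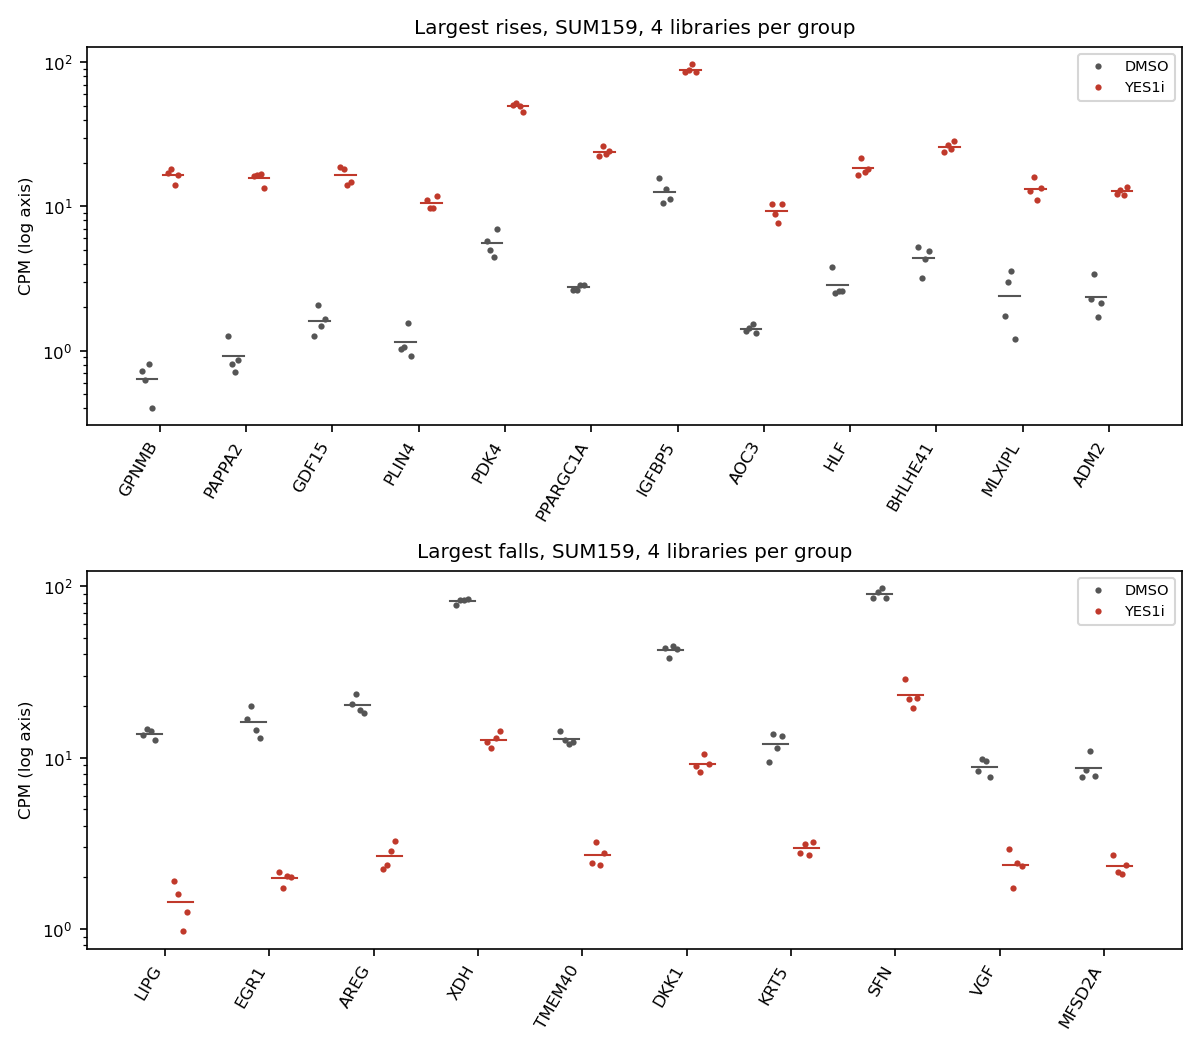
CPM (log axis) in each library for 12 protein-coding genes with the largest rises and 10 with the largest falls, grey for DMSO and red for YES1i, with a bar at each mean of 4 libraries. No gene shown overlaps between groups, as the choice of genes required. GPNMB moves from a mean of 0.638 to 16.5 CPM and LIPG from 13.8 to 1.43 CPM.

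Most named ligands of the EGF receptor family fell. Among receptors, EGFR rose, as did PDGFRB and DDR2 of other families. ERBB2 was at -0.11 with no call, and the receptor AXL fell, at -0.24. AREG, the ligand amphiregulin, was at 20.4, 23.4, 19.02 and 18.3 CPM with DMSO and 2.25, 2.37, 2.84 and 3.24 CPM with YES1i. All YES1i libraries were lower, at -2.91 ± 0.13 SE on the log2 scale, with adjusted p = 1.46e-10 by edgeR. EREG, epiregulin, was at 154, 165, 148 and 152 CPM with DMSO and 56.9, 50.2, 53.6 and 54.9 CPM with YES1i, again with wide separation (log2 fold change -1.52 ± 0.06 SE). NRG1, a ligand of ERBB3 and ERBB4, fell by 1.32 on the log2 scale, and the EGFR ligands TGFA and HBEGF by 0.67 and 0.39. The ligand BTC, under 1 CPM, rose. EGFR itself rose from 435 ± 12.97 to 565 ± 15.1 CPM, PDGFRB from 31.5 ± 1.71 to 46.2 ± 2.65 CPM, the collagen receptor DDR2 from 6.80 ± 0.812 to 19.4 ± 2.47 CPM and the angiogenic factor VEGFA from 105 ± 9.22 to 252 ± 5.93 CPM. Over the whole list of receptors and ligands 13 of 35 rose and 9 fell, with a median of 0.00 against 0.01 for all genes.

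Genes that report ERK activity fell or did not pass the test: 0 of 21 rose and 14 fell, against 27.5% of all genes lower, with a median of -0.49. IER3, an early response gene, was at 108, 103, 95.97 and 88.5 CPM with DMSO and 33.5, 38.4, 32.7 and 30.3 CPM with YES1i, and no libraries overlapped (log2 fold change -1.55 ± 0.08 SE). DUSP5, which holds ERK in the nucleus and dephosphorylates it, fell from 105 ± 5.59 to 55.4 ± 4.43 CPM. The feedback inhibitors SPRY4 and SPRY2 were at -0.90 and -0.34, and the ETS factors ETV4 and ETV5 at -0.64 and -0.29. The ERK phosphatase DUSP6, at low levels, went from 2.27 ± 0.553 to 0.715 ± 0.206 CPM. MYC and CCND1, also fed by this pathway, had log2 fold changes of -0.13 and -0.04, with no call. EGR1, the immediate early zinc finger factor, was at 16.8, 19.99, 14.5 and 12.98 CPM with DMSO and 2.13, 1.73, 2.04 and 2.02 CPM with YES1i, the widest fall of any named transcription factor (log2 fold change -3.02 ± 0.15 SE, adjusted p = 5.14e-10). Of 21 immediate early and AP-1 genes 9 fell and 2 rose, a majority that turned with upper quartile scaling (7 higher and 6 lower). IER5 fell from 83.6 ± 4.24 to 47.8 ± 2.52 CPM, and the AP-1 member FOSL1, on both lists, by 0.55. FOS was at 0.658 ± 0.103 to 0.516 ± 0.197 CPM with no call.

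Clock genes had the highest median change of the 44 described lists. The circadian clock is a feedback loop in which CLOCK or NPAS2 pairs with BMAL1 (ARNTL) to switch on PER, CRY and NR1D genes, which then repress that pair. The factors DBP, TEF and HLF carry its output to other genes. Of 19 members 13 rose, 10 of them at least 2-fold (5.91% of all genes), and 4 fell, with a median of 1.16.

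The rises covered outputs and repressors. HLF was at 3.78, 2.50, 2.59 and 2.58 CPM with DMSO and 16.4, 21.8, 17.4 and 18.3 CPM with YES1i, with DMSO replicate 1 above its 3 group members and still far below YES1i (log2 fold change 2.65 ± 0.15 SE). DBP was at 5.17, 4.56, 6.38 and 4.94 CPM with DMSO and 23.4, 21.1, 22.3 and 23.8 CPM with YES1i, clear of overlap (log2 fold change 2.09 ± 0.11 SE, edgeR adjusted p = 6.15e-10), and TEF went from 17.1 ± 0.939 to 38.1 ± 4.45 CPM. Among repressors of the loop, BHLHE41 (DEC2) was at 5.26, 3.19, 4.33 and 4.88 CPM with DMSO and 23.9, 26.6, 25.01 and 28.2 CPM with YES1i. Its YES1i libraries lay close together and far above DMSO (log2 fold change 2.53 ± 0.13 SE). PER3, PER2 and CRY2 had log2 fold changes of 1.93, 1.19 and 1.18, and NR1D1 and NR1D2, the REV-ERB receptors that repress ARNTL, 1.30 and 0.78. PER1 rose by only 0.20, from 87.5 ± 4.10 to 101 ± 4.98 CPM. The activating arm was split. NPAS2 was at 4.12, 2.62, 4.11 and 4.42 CPM with DMSO and 9.05, 13.2, 12.3 and 9.54 CPM with YES1i, a rise of 1.51, while ARNTL fell from 29.4 ± 1.42 to 21.8 ± 2.38 CPM and its relative ARNTL2 from 49.9 ± 2.07 to 23.5 ± 1.81 CPM. CRY1 fell as well (-0.45) and BHLHE40 slightly (-0.17), and CLOCK was at -0.11 with no call. With 1 time point, a shift of phase and a change of level cannot be told apart.

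**Figure D3:**
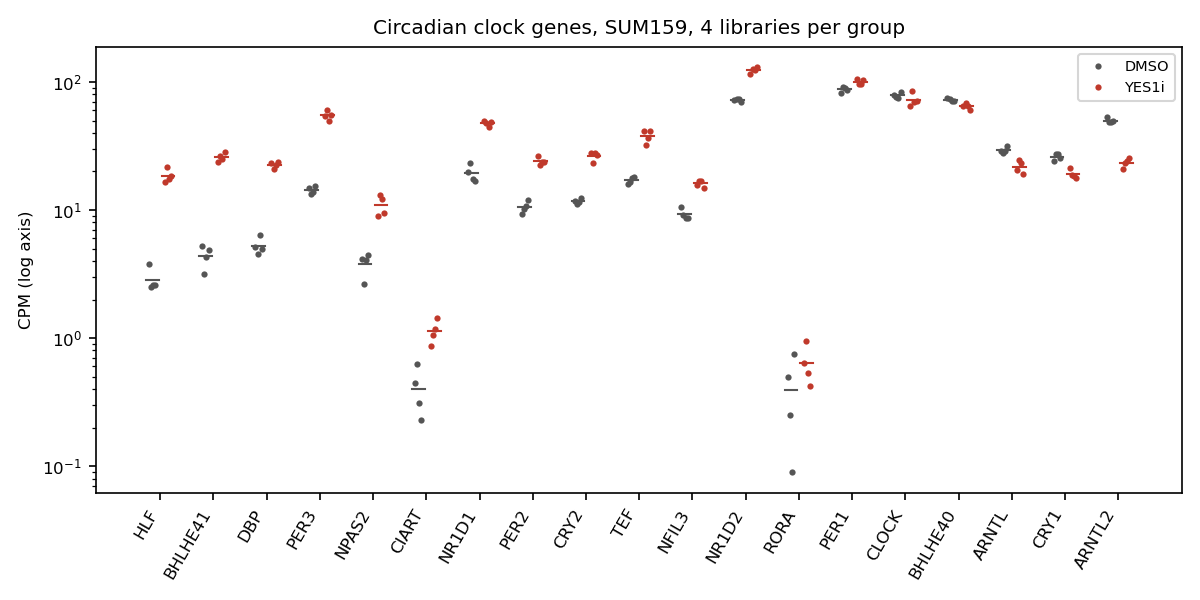
CPM (log axis) of the 19 tested clock genes in each library, ordered by log2 fold change, grey for DMSO and red for YES1i, with bars at the means of 4 libraries. The genes from HLF to PER1 have positive log2 fold changes, all called except that of RORA, and ARNTL2 at the right end lies lowest relative to DMSO at -1.09.

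The clock's activators bind the E-box CACGTG. In the 250 bases before the gene start (RefSeq, GRCh38.p14), 5 of the 19 matched clock promoters held it on either strand, or 26.3%, against 6.34% of 35116 promoters. The 3 shown, chosen after values were seen, belong to members that rose at least 2-fold and hold a match, written 5′ to 3′ along the gene's strand with the E-box in capitals.
CIART, chr1:150282304-150282553, + strand: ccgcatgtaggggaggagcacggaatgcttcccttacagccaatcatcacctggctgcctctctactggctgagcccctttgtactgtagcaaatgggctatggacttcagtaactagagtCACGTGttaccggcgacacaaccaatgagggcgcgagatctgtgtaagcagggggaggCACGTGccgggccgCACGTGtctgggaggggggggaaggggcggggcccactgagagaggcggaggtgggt
BHLHE41, chr12:26125038-26125287, - strand: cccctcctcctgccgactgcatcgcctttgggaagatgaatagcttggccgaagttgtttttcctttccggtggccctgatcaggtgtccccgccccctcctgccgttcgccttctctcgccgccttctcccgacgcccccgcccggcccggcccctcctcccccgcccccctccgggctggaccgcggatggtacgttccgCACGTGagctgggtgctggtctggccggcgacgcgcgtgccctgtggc
TEF, chr22:41367205-41367454, + strand: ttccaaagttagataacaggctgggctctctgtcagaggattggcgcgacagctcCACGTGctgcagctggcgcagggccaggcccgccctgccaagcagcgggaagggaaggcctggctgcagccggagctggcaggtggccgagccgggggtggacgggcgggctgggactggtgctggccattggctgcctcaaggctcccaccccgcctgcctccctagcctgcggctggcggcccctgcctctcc
CIART, a repressor of the CLOCK and BMAL1 pair, holds 3 copies, which begin 129, 71 and 57 bases before the start, the copies in BHLHE41 and TEF beginning 48 and 195 bases before it. CIART went from 0.403 ± 0.172 to 1.13 ± 0.238 CPM. The other 2 matches were in PER1 and in BHLHE40, which fell.

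Ribosomal protein genes rose, and nucleolar factors and proteasome subunits fell. Ribosomal proteins form the finished ribosome, nucleolar factors cut and fold its RNA, aminoacyl-tRNA synthetases charge tRNAs, and the proteasome breaks proteins down. Of 75 cytosolic ribosomal protein genes 58 rose and 0 fell (25.4% and 27.5% of all genes), with a median of 0.41. Their summed level was 70396 to 73731 CPM with DMSO and 89195 to 99619 CPM with YES1i, without overlap. Of 44 nucleolar factors 38 fell and 1 rose (median -0.46), and of 35 proteasome genes 28 fell and 1 rose (median -0.61).

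Single members show the pattern. RPS27 of the small subunit was at 486, 416, 398 and 536 CPM with DMSO and 847, 755, 878 and 830.5 CPM with YES1i, all YES1i libraries above all DMSO ones (log2 fold change 0.85 ± 0.09 SE). RPL37 of the large subunit followed at 0.80 ± 0.11 SE, YES1i replicate 1 being the highest at 1651 CPM. Among members with the lowest log2 fold changes, RPS10, RPSA, RPL26 and RPL35 ran from -0.23 to 0.15 with no call. Values of ribosomal protein genes are uncertain where processed pseudogenes share their sequence. EBNA1BP2, a large-subunit assembly factor, was at 142, 159, 159 and 145 CPM with DMSO and 86.6, 80.3, 85.9 and 77.98 CPM with YES1i, fully separated (log2 fold change -0.87 ± 0.06 SE, edgeR adjusted p = 1.13e-08). LYAR, a nucleolar regulator, fell from 39.4 ± 3.41 to 22.2 ± 3.68 CPM. Nucleolin (NCL) fell by 0.52 and fibrillarin (FBL), which methylates ribosomal RNA, by 0.31, while nucleophosmin (NPM1) was at 0.01 with no call. RRN3, an initiation factor of RNA polymerase I, was the member that rose, at 0.17.

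Proteasome genes fell in both the core and the cap. PSMD2, a scaffold of the regulatory cap, was at 386, 442, 447 and 409 CPM with DMSO and 196, 156, 189 and 184 CPM with YES1i, with a log2 fold change of -1.22 ± 0.07 SE. PSMD1, its partner, was at 172, 155, 163 and 165 CPM with DMSO and 67.6, 74.03, 77.9 and 68.7 CPM with YES1i (log2 fold change -1.19 ± 0.06 SE). In neither did groups overlap. Of the core subunits, PSMB3 fell by 0.95 and PSMA4 by 0.76. PSMB5, the catalytic subunit that proteasome inhibitors bind, was at -0.25 ± 0.12 SE (adjusted p = 0.0918), and PSMD8 rose by 0.43. Aminoacyl-tRNA synthetases split, 12 of 20 higher and 5 lower. SARS, for serine, rose from 142 ± 9.69 to 266 ± 12.6 CPM, and VARS, for valine, fell from 259 ± 25.1 to 159 ± 10.96 CPM.

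**Figure D4:**
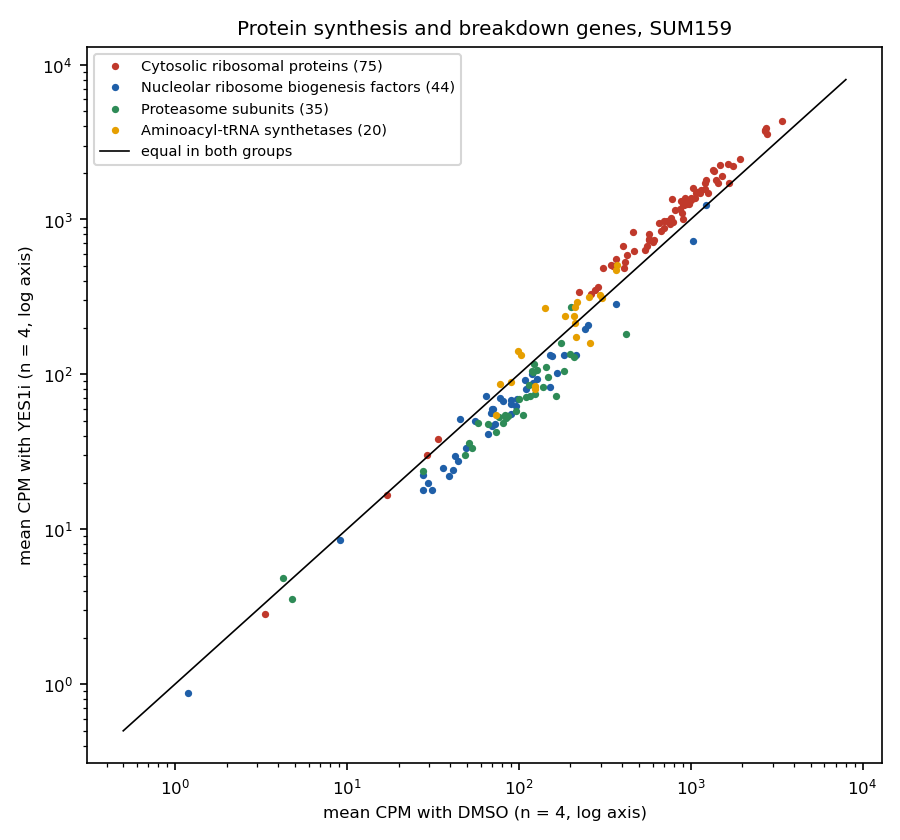
Mean CPM with YES1i against mean CPM with DMSO (4 libraries each, log axes) for the tested members of 4 lists, the line marking equal levels. Most ribosomal protein genes lie above the line, and most nucleolar and proteasome genes below it, with 58 of 75 called higher and 38 of 44 and 28 of 35 called lower.

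MYC binds the same E-box CACGTG, which 5 of 37 matched nucleolar promoters held (13.5%, against 6.34% of all). That of EBNA1BP2, the most changed member, is shown because it holds a copy, in capitals, that begins 237 bases before the start. The promoter of LYAR held none.
EBNA1BP2, chr1:43172571-43172820, - strand: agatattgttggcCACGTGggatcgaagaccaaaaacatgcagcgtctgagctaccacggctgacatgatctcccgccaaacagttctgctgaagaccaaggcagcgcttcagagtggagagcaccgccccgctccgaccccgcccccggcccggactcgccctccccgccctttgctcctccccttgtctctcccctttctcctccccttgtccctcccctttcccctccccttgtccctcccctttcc

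Stress genes divided between arms of the response. In the integrated stress response, phosphorylation of the initiation factor eIF2 slows translation and raises the factor ATF4, which switches on amino acid genes. In the unfolded protein response, chaperones of the endoplasmic reticulum are made when proteins misfold there. Of 24 integrated stress response genes 18 rose and 1 fell (median 0.66). Of 24 endoplasmic reticulum genes 8 rose and 13 fell (median -0.22), and of 22 heat shock genes 2 rose and 13 fell (median -0.39).

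GDF15, a secreted stress factor that suppresses appetite, was at 1.252, 2.06, 1.47 and 1.67 CPM with DMSO and 18.8, 18.2, 14.1 and 14.7 CPM with YES1i. Every YES1i library was several times every DMSO library (log2 fold change 3.40 ± 0.16 SE, edgeR adjusted p = 2.37e-10). ADM2, a peptide of the adrenomedullin family, was at 2.28, 3.37, 1.70 and 2.12 CPM with DMSO and 12.3, 12.9, 11.97 and 13.7 CPM with YES1i (log2 fold change 2.45 ± 0.16 SE), and the stress protein NUPR1 went from 22.1 ± 2.58 to 110.0 ± 11.3 CPM. ATF4 itself rose from 436 ± 26.01 to 698 ± 27.5 CPM, and DDIT3 (CHOP), which promotes death under lasting stress, from 10.5 ± 2.14 to 22.98 ± 3.79 CPM. ATF3 fell by 0.66. CHAC1, SLC7A11 and DDIT4, also targets of ATF4, were at -0.01, 0.03 and -0.03 with no call. The letters TGATGNAA of the ATF4 element were in 4 of 21 matched promoters (19%, against 3.14% of all), those of ASNS, ATF3, CHAC1 and HERPUD1, and in neither GDF15 nor ADM2.

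Chaperones and folding enzymes were among the 13 falls of the endoplasmic reticulum list. PDIA4, a disulfide isomerase, was at 374, 359, 371 and 359.9 CPM with DMSO and 163, 149, 172 and 153 CPM with YES1i, with no overlap (log2 fold change -1.20 ± 0.06 SE). SDF2L1, a partner of the chaperone BiP, was at 27.7, 39.2, 38.3 and 30.6 CPM with DMSO and 17.8, 11.9, 16.05 and 13.9 CPM with YES1i (log2 fold change -1.19 ± 0.14 SE). BiP (HSPA5) fell from 527 ± 22.7 to 276 ± 26.2 CPM, HSP90B1 from 874 ± 67.6 to 469 ± 57.1 CPM, and the secreted factors CRELD2 and MANF by 1.18 and 1.10. Of the members that rose, the sensor kinase ERN1 (IRE1), the degradation factor SEL1L and the co-chaperone DNAJB9 rose by 0.67, 0.59 and 0.59. XBP1 was at 0.07 with no call, but was called higher with upper quartile scaling (0.19, adjusted p = 0.0227). Of heat shock genes in the cytosol, HSP90AA1 was at 1288, 1266, 1315 and 1237 CPM with DMSO and 546, 695, 652 and 553 CPM with YES1i. All YES1i libraries lay well below all DMSO libraries (log2 fold change -1.06 ± 0.07 SE). HSPE1, the mitochondrial co-chaperonin, fell from 70.9 ± 10.3 to 36.7 ± 4.07 CPM, while HSPA8 was at 0.05 with no call.

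CCACG, one end of the ER stress element, was in 16 of 22 matched promoters of the endoplasmic reticulum list, or 72.7%, against 33.5% of all promoters. The 2 most changed members are shown, chosen after values were seen, with the match in capitals, which begins 37 bases before the start in PDIA4 and 188 bases before it in SDF2L1.
PDIA4, chr7:149028491-149028740, - strand: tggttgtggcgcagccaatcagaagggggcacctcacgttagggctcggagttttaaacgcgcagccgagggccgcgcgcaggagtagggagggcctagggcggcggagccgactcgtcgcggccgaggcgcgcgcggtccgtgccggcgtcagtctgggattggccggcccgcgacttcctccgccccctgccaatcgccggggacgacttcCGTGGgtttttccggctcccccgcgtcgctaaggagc
SDF2L1, chr22:21642052-21642301, + strand: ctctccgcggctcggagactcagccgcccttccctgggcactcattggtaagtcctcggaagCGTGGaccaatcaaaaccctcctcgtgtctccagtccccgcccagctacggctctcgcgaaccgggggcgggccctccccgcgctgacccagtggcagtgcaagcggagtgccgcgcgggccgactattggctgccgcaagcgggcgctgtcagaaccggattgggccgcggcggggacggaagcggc

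Amino acid genes rose in part. Of 21 transporters 10 rose and 7 fell, and of 19 genes of serine and one-carbon metabolism 9 rose and 6 fell. SLC7A5, the exchanger that brings in leucine, was at 550.0, 717, 581 and 554 CPM with DMSO and 1406, 1226, 1261 and 1239 CPM with YES1i, all YES1i libraries above all DMSO libraries (log2 fold change 1.10 ± 0.08 SE). SLC1A4, for alanine and serine, rose from 18.7 ± 3.19 to 44.03 ± 4.26 CPM. SLC38A2 and SLC7A2 fell, by 0.68 and 0.78. The serine synthesis enzymes PSAT1 and PHGDH rose from 160.2 ± 20.8 to 336 ± 15.1 CPM and from 157 ± 20.8 to 285 ± 43.3 CPM. The members that fell include the thymidylate synthase TYMS (-1.56), which also stands on the cell cycle list.

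Lysosomal genes rose more often than they fell. MiT/TFE factors, which mTORC1 keeps in the cytoplasm, drive these genes through the CLEAR element. Of 47 hydrolases and membrane proteins 27 rose and 5 fell (median 0.25), and of 38 autophagy and MiT/TFE genes 18 rose and 6 fell (median 0.13). The autophagy genes called lower were 3 without any 1 of DMSO replicates 1, 2 and 3 and YES1i replicate 2, 4 without YES1i replicate 3 or 4, and 3 with upper quartile or RLE scaling. The proton pump of lysosomes had 3 of 18 subunits higher and 5 lower, and 5 and 1 with upper quartile scaling, ATP6V0D1 and ATP6V0C being at -0.60 and -0.48. The call of ATP6V0C, whose groups overlapped (adjusted p = 0.0245), ended with upper quartile scaling (adjusted p = 0.0848) and without DMSO replicate 1 or 4 or YES1i replicate 1, 3 or 4 (adjusted p = 0.0551 to 0.0722).

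CTSD, the protease cathepsin D, was at 173, 173, 174 and 167 CPM with DMSO and 621, 492, 583 and 589.8 CPM with YES1i, YES1i replicate 2 being the lowest of its group and still far above DMSO (log2 fold change 1.73 ± 0.07 SE, edgeR adjusted p = 3.11e-11). CTSF was at 9.10, 10.2, 12.1 and 6.55 CPM with DMSO and 35.9, 20.7, 29.4 and 33.8 CPM with YES1i, with YES1i replicate 2 again the lowest (log2 fold change 1.65 ± 0.21 SE). PSAP, the precursor of saposins, rose from 934 ± 33.5 to 1761 ± 201 CPM. GLA, which cleaves sugars, and ARSB fell by 0.77 and 0.67. The autophagy receptor SQSTM1 (p62) was at 254, 282, 282 and 262 CPM with DMSO and 630.0, 544, 595 and 616 CPM with YES1i, clear of overlap (log2 fold change 1.14 ± 0.06 SE). RRAGD and FLCN, which link lysosomes to mTORC1, rose from 0.773 ± 0.297 to 3.40 ± 0.504 CPM and from 11.5 ± 1.53 to 21.8 ± 2.59 CPM. The factors TFEB, TFE3 and MITF were at -0.16, -0.07 and 0.14 with no call.

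The CLEAR core TCACGTG, which contains the E-box CACGTG, was in 8 of 30 matched lysosomal promoters (26.7%), 4 of 33 autophagy promoters (12.1%) and 4 of 13 promoters of proton pump subunits (30.8%), against 3.31% of all promoters. Of all pump genes tested, 3 were called higher and 5 lower. The 2 shown are the most changed lysosomal genes above 5 CPM, chosen after values were seen, with the match in capitals beginning 47 bases before the start in CTSD and 123 in CTSF.
CTSD, chr11:1763928-1764177, - strand: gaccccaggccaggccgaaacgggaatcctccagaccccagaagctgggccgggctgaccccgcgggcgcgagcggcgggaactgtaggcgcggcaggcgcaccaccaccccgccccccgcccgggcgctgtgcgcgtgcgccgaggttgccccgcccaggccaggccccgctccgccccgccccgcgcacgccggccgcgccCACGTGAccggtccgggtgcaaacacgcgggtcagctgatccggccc
CTSF, chr11:66568607-66568856, - strand: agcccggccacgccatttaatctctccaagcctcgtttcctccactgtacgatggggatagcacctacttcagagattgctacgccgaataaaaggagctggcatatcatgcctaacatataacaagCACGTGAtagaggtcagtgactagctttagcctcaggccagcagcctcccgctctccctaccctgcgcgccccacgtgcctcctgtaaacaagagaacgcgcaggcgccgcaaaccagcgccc
Other motifs were searched on both strands in the same way. The AP-1 site TGANTCA was in 0 of 18 immediate early promoters (6.57% of all) and the SREBP site TCACNCCA in 0 of 20 fatty acid synthesis promoters (3.20% of all). The TEAD site GGAATG was in 7 of 20 promoters of YAP/TAZ targets (35%, against 11.9%), and the antioxidant response core TGANNNNGC in 11 of 21 of NRF2 targets (52.4%, against 35.2%). The xenobiotic response core GCGTG was in 4 of 7 aryl hydrocarbon receptor promoters (57.1%, against 32.2%) and the metal response core TGCNCNC in 3 of 5 of the metallothionein list (60%, against 49.1%).

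Iron storage and antioxidant genes rose in part. Of 15 iron genes 8 rose and 1 fell. FTH1, the ferritin heavy chain, was at 1194, 1082, 1047 and 1229 CPM with DMSO and 2524, 2888, 2669.6 and 2628 CPM with YES1i, without overlap (log2 fold change 1.23 ± 0.07 SE). FTL, the light chain, went from 2393 ± 199 to 4843 ± 431 CPM. HMOX1, which releases iron from haem, was at 33.4, 35.1, 35.2 and 37.3 CPM with DMSO and 101, 85.6, 100.2 and 100.2 CPM with YES1i, YES1i replicate 2 being the lowest of its group (log2 fold change 1.46 ± 0.07 SE). The iron regulator ACO1 fell by 0.59. All 3 risers FTH1, FTL and HMOX1 also stand on the list of NRF2 targets, where 14 of 27 rose and 7 fell. Among those, AKR1C2 rose by 1.14, and PGD, an enzyme of the pentose pathway, fell by 0.57. NQO1 and GCLM, classic NRF2 targets, were at -0.14 and -0.05 with no call. Metallothionein MT2A, which binds zinc, was at 1549, 881, 931 and 1332 CPM with DMSO and 363, 619, 483 and 419 CPM with YES1i. It was lower in all YES1i libraries, although the DMSO libraries spread widely (log2 fold change -1.32 ± 0.25 SE, adjusted p = 0.00407), and MT1E was at -0.81. Of 7 metallothionein and zinc genes 2 rose and 4 fell.

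Genes that make fatty acids fell, while some that burn or store them rose. Of 22 genes of fatty acid synthesis 14 fell and 4 rose (median -0.35). FASN, the synthase, was at 1225, 1444, 1518 and 1254 CPM with DMSO and 739, 565, 589 and 673 CPM with YES1i, with a gap between the groups (log2 fold change -1.08 ± 0.09 SE). SCD, which adds a double bond, fell from 828 ± 42.7 to 431 ± 8.04 CPM, ACLY, which supplies acetyl-CoA, by 0.80, and their activator SREBF1 by 0.58. ACSL1 and GPAM, which activate and esterify fatty acids, rose by 0.65 and 0.61. Of 31 genes of lipid droplets and oxidation 15 rose, 6 of them at least 2-fold, and 6 fell (median 0.10). Besides PDK4, PLIN4 and PPARGC1A, given above, they include the uptake receptor CD36, from 0.250 ± 0.122 to 2.09 ± 0.632 CPM, the triglyceride enzyme DGAT2, from 4.03 ± 0.803 to 11.98 ± 1.80 CPM, and CPT1A, the gate of mitochondrial oxidation, from 34.3 ± 1.30 to 52.3 ± 3.57 CPM. The binding protein FABP5 fell by 0.92.

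Respiratory chain genes of the nucleus were lower in many cases, 31 of 58, with 3 higher (median -0.26). Complex I accounted for 21 of the falls among its 32 tested subunits. NDUFB6 was at 48.3, 48.5, 48.6 and 46.1 CPM with DMSO and 33.4, 26.2, 25.9 and 26.6 CPM with YES1i, below DMSO in every library (log2 fold change -0.78 ± 0.08 SE). The mitochondrial genome's own 13 messages had 4 lower and 1 higher (median -0.10). Without DMSO replicate 1 there were 4 lower and 3 higher and the median was 0.16 (0.02 with upper quartile scaling), and 2 were higher without YES1i replicate 4. The count higher was 0 without DMSO replicate 3, DMSO replicate 4 or YES1i replicate 2, and at an adjusted p under 0.01 there were 1 lower and 0 higher. MT-CO3 was at 5009.6, 3395, 3742 and 4396 CPM with DMSO and 1723, 2051, 2163 and 1737 CPM with YES1i, without overlap (log2 fold change -1.11 ± 0.12 SE), and MT-ND6, from the opposite strand, rose from 409.6 ± 105 to 692 ± 138 CPM. The summed level of these messages overlapped between groups, at 24984 to 41326 CPM with DMSO and 24332 to 34981 CPM with YES1i. Mitochondrial rRNA rose as a share of counts, as given above, and its part in these values was not tested.

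Glycolytic enzymes and hypoxia targets, on 1 list, divided, with 16 of 38 higher and 13 lower. The enzymes PKM, PGAM1, LDHA and ENO1 fell by 0.68, 0.70, 0.50 and 0.40, while GAPDH rose by 0.33. NDRG1, a stress-induced differentiation gene, was at 128, 119, 115 and 123 CPM with DMSO and 305, 343, 303 and 299 CPM with YES1i, well separated (log2 fold change 1.37 ± 0.06 SE). VEGFA was at 101, 118, 97.2 and 103 CPM with DMSO and 258, 249, 245 and 256 CPM with YES1i (log2 fold change 1.27 ± 0.06 SE). CA9, a carbonic anhydrase, and BNIP3, a mitophagy receptor, rose by 0.96 and 0.84.

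Collagens rose more often than they fell. Of 25 collagens 14 rose and 5 fell (median 0.53). COL6A1, of the beaded collagen VI, was at 109, 98.9, 109.7 and 95.7 CPM with DMSO and 267, 248, 234 and 249 CPM with YES1i, with no overlap (log2 fold change 1.27 ± 0.06 SE), and all 3 tested type VI chains rose. Of 6 tested chains of type IV, the collagen of basement membranes, 4 rose and 1 fell. COL17A1, the collagen of hemidesmosomes, was at 22.1, 19.5, 23.97 and 20.7 CPM with DMSO and 7.49, 5.33, 6.28 and 5.80 CPM with YES1i (log2 fold change -1.80 ± 0.11 SE), and COL3A1, a fibrillar collagen, fell from 41.7 ± 2.56 to 18.3 ± 3.39 CPM. COL1A1 was at -0.01 with no call. Among 39 matrix glycoproteins and crosslinking enzymes 16 rose and 11 fell. The crosslinking enzyme LOX rose from 29.7 ± 2.74 to 79.7 ± 2.24 CPM, the proteoglycan decorin (DCN) from 8.36 ± 1.67 to 18.5 ± 1.17 CPM, and thrombospondin 1 (THBS1) fell from 1488 ± 55.2 to 882 ± 32.1 CPM. HAS3, a hyaluronan synthase, fell from 8.95 ± 0.362 to 2.72 ± 0.781 CPM.

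TIMP3, an inhibitor of metalloproteases, was at 46.7, 45.4, 45.9 and 47.6 CPM with DMSO and 177, 172, 169 and 166 CPM with YES1i. Its spread within groups was small, and it moved by 1.88 ± 0.05 SE on the log2 scale, with adjusted p = 1.20e-12 by edgeR. ADAMTS15 was at 3.89, 4.06, 4.06 and 3.45 CPM with DMSO and 11.8, 7.93, 12.5 and 11.7 CPM with YES1i, YES1i replicate 2 lying below its group (log2 fold change 1.498 ± 0.15 SE). Of 30 proteases and inhibitors 15 rose, 9 of them at least 2-fold, and 10 fell. MMP2 and MMP14, the gelatinase and its activator, rose from 263 ± 8.57 to 486 ± 19.6 CPM and from 22.03 ± 1.67 to 48.6 ± 3.44 CPM. PLAU, the urokinase, fell by 0.57. In the TGF-beta and BMP list 14 of 31 rose and 4 fell, or 16 and 2 with upper quartile scaling. TGFBI, a matrix protein induced by TGF-beta, was at 3546, 3432, 3537 and 3281 CPM with DMSO and 9092, 8565, 8479.9 and 8538 CPM with YES1i, with YES1i replicate 1 the highest (log2 fold change 1.33 ± 0.06 SE). The latent TGF-beta binding proteins parted, LTBP1 at 1.39 and LTBP2 at -1.15.

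Cytoskeletal targets of SRF rose, 10 of 19 with 3 lower (median 0.30). TAGLN (SM22), an actin-binding protein of smooth muscle, was at 8.96, 10.1, 9.46 and 9.25 CPM with DMSO and 42.2, 30.997, 30.4 and 36.4 CPM with YES1i, without overlap (log2 fold change 1.90 ± 0.11 SE). LMOD1, which starts actin filaments, was at 3.48, 2.37, 3.17 and 3.16 CPM with DMSO and 11.4, 12.6, 11.9 and 10.05 CPM with YES1i (log2 fold change 1.89 ± 0.13 SE). The myosin chains MYL9 and MYH9 rose by 1.35 and 0.71 and the tropomyosin TPM1 by 0.89. Beta-actin (ACTB) fell by 0.38 while gamma-actin (ACTG1) rose by 0.30, and SRF was at -0.04 with no call. Markers of fibroblasts and pericytes, 9 of 11 tested, which share the smooth muscle actin ACTA2 with this list, had 5 higher and 1 lower (median 0.26). Of these 9 markers 6 did not overlap between groups, against 47.4% of all tested genes. Their summed level was 859.6 to 1001 CPM with DMSO and 875 to 1045 CPM with YES1i, and their part in the values of SRF targets, collagens and decorin was not tested.

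Adhesion genes moved both ways. Of 29 integrin and focal adhesion genes 11 rose and 10 fell, which became 14 and 9 with upper quartile scaling. ITGA11, a collagen receptor chain, was at 16.2, 17.2, 17.01 and 14.9 CPM with DMSO and 74.1, 70.3, 68.3 and 66.97 CPM with YES1i, with wide separation (log2 fold change 2.10 ± 0.07 SE, adjusted p = 7.04e-12). ITGA7, a laminin receptor chain, rose from 8.22 ± 1.45 to 16.4 ± 1.30 CPM. CAV1, the main protein of caveolae, was at 1021, 818, 865 and 950.1 CPM with DMSO and 558, 617, 618 and 573 CPM with YES1i, below DMSO throughout (log2 fold change -0.63 ± 0.07 SE). CSK, the kinase that restrains Src kinases, fell by 0.51, and FAK (PTK2) and p130Cas (BCAR1), both Src substrates, by 0.29 and 0.29. Of 28 YAP/TAZ targets 11 rose and 10 fell, or 14 and 6 with upper quartile scaling. CTGF fell from 108 ± 6.85 to 61.1 ± 5.49 CPM, CYR61 was at 0.09 with no call, and IGFBP3 was at 3.81, 3.19, 3.62 and 3.22 CPM with DMSO and 19.7, 19.5, 19.9 and 16.9 CPM with YES1i. That last rise was 2.44 ± 0.11 SE.

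Epithelial genes gave 9 lower and 5 higher of 24, but 5 and 8 with upper quartile scaling. KRT5 was at 9.37, 13.7, 11.4 and 13.3 CPM with DMSO and 2.77, 3.15, 2.68 and 3.19 CPM with YES1i, and KRT6A, the keratin of activated skin, below 5 CPM, went from 4.55 ± 0.356 to 0.377 ± 0.182 CPM. Of 13 mesenchymal genes and factors of the epithelial-mesenchymal transition 4 rose and 0 fell, or 8 and 0 with upper quartile scaling. TWIST2 was at 142, 135, 136 and 147 CPM with DMSO and 234, 222, 237 and 234 CPM with YES1i, without overlap (log2 fold change 0.73 ± 0.05 SE), and SNAI2 rose from 50.04 ± 4.90 to 72.5 ± 12.4 CPM, YES1i replicate 2 the highest. ZEB1 was at 0.20 with no call, and was called higher with upper quartile scaling, in the fit of 16 libraries (adjusted p = 0.0496) and without YES1i replicate 1.

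Signals between cells changed gene by gene. Of 39 ephrin, semaphorin and other guidance genes 12 rose and 12 fell, or 14 and 11 with upper quartile scaling. UNC5B, a netrin receptor, was at 56.4, 81.1, 61.6 and 60.2 CPM with DMSO and 243, 214, 214 and 219 CPM with YES1i, far above DMSO in each YES1i library (log2 fold change 1.78 ± 0.10 SE). EFNB3 rose from 4.56 ± 0.583 to 11.6 ± 1.61 CPM while its relative EFNB1 fell from 54.8 ± 3.80 to 24.7 ± 4.31 CPM, and SLIT2, a repellent cue, fell by 1.28. In the Wnt list 9 of 31 rose and 7 fell, or 51.6% called against 52.9% of all genes. NKD2, an inhibitor of the pathway, was at 14.5, 16.1, 20.4 and 16.999 CPM with DMSO and 93.5, 69.6, 80.6 and 84.2 CPM with YES1i, opposite to the inhibitor DKK1 (log2 fold change 2.28 ± 0.11 SE). The pathway's feedback gene AXIN2 fell by 0.35 and LEF1 by 0.61. Among 17 Notch genes 6 rose and 3 fell, but 8 and 0 with upper quartile scaling. The count of lower Notch genes was 0 without DMSO replicate 3 and 1 without DMSO replicate 4 or YES1i replicate 4, and also 0 at an adjusted p under 0.01. NOTCH3 rose from 177 ± 16.6 to 256 ± 30.7 CPM, RFNG, which modifies Notch receptors, by 0.56, and the target HES1 was at 0.11 with no call.

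In the BCL2 family, which sets the threshold for cell death, 6 of 16 rose and 5 fell. BMF, a BH3-only activator of death, was at 12.9, 9.75, 11.96 and 10.1 CPM with DMSO and 57.99, 53.6, 52.3 and 54.1 CPM with YES1i, clear of overlap (log2 fold change 2.27 ± 0.09 SE, edgeR adjusted p = 4.07e-11). BCL2, the survival member, was at 19.4, 19.7, 21.6 and 19.8 CPM with DMSO and 45.2, 40.9, 46.1 and 50.7 CPM with YES1i (log2 fold change 1.19 ± 0.08 SE), and BCL2L11 (BIM) rose from 5.76 ± 0.277 to 9.13 ± 1.90 CPM. The death effectors BAX and BAK1 fell by 0.70 and 0.60, as did MCL1, a survival member, by 0.56. Among 27 p53 targets 11 fell and 7 rose, turning to 7 and 11 with upper quartile scaling. AEN, a nuclease, fell from 26.9 ± 3.74 to 13.2 ± 2.11 CPM, and the cell cycle inhibitor CDKN1A by 0.30. GDF15, which rose, stands on this list too.

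Interferon genes moved both ways. Of 40 interferon genes 12 rose and 5 fell, or 14 and 2 with upper quartile scaling. Calls covered 42.5% of them, against 52.9% of all genes. The count lower was 8 without YES1i replicate 2 and 3 without DMSO replicate 2, DMSO replicate 4 or YES1i replicate 4. STAT2, which carries the interferon signal, was at 52.1, 48.8, 50.8 and 54.9 CPM with DMSO and 95.6, 97.7, 102 and 104 CPM with YES1i, without overlap (log2 fold change 0.95 ± 0.06 SE). OAS3, an antiviral sensor, was at 54.4, 54.3, 52.6 and 53.8 CPM with DMSO and 20.3, 21.8, 22.7 and 22.1 CPM with YES1i, in the opposite direction (log2 fold change -1.31 ± 0.06 SE). The MHC class I list had 4 higher and 4 lower of 19 (42.1% called), and 10 and 0 with upper quartile scaling. HLA-E rose from 255 ± 4.87 to 376 ± 21.998 CPM, and PSMB9 of the immunoproteasome fell by 0.40, a call that upper quartile scaling ended (adjusted p = 0.0589).

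Smaller lists gave mixed counts. Of 8 aryl hydrocarbon receptor genes 3 rose and 3 fell, or 4 and 2 with upper quartile scaling. The repressor AHRR was at 64.1, 65.5, 67.4 and 65.4 CPM with DMSO and 158, 154, 155 and 159 CPM with YES1i, with very tight groups (log2 fold change 1.252 ± 0.05 SE), and the receptor AHR fell from 86.2 ± 10.04 to 61.9 ± 6.88 CPM. CYP1A1, the classic target, went from 0.751 ± 0.171 to 2.39 ± 0.382 CPM. Of 16 clustered histone genes 7 fell and 4 rose, in libraries selected for poly(A), a tail most of these messages lack. The list median was -0.45, and 6 members fell at least 2-fold while 1 rose as much. The 2 most changed members averaging at least 5 CPM went against that direction. HIST1H2AC rose from 4.71 ± 0.387 to 9.68 ± 1.06 CPM and HIST3H2A was at 0.92. Of 47 genes of the primary cilium 13 rose and 7 fell, or 19 and 4 with upper quartile scaling, and WDR19 and IFT27 of the transport trains rose by 0.67 and 0.76.

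Among called noncoding transcripts, rises far outnumbered falls. Of 729 lincRNA genes 218 rose and 67 fell (median 0.33), of 883 antisense genes 245 rose and 44 fell (0.30), and of 166 processed transcripts 67 rose and 6 fell (0.40). Of all tested genes 25.4% rose and 27.5% fell. For lincRNA and antisense genes the rises were near that share, and the falls were well below it. Calls in either direction covered 39.1%, 32.7% and 44.0% of these 3 classes, against 52.9% of all genes. Protein-coding genes had 3187 higher and 4140 lower of 12775 (median -0.04). The shares of counts from lincRNA and antisense RNA were higher in all YES1i libraries and that of protein-coding genes was lower (97.3% to 96.1% in the mean), and their part in these counts was not tested. SNHG7, a host of small nucleolar RNAs, was at 56.3, 67.7, 64.3 and 55.8 CPM with DMSO and 193, 145, 165 and 187 CPM with YES1i, without overlap (log2 fold change 1.501 ± 0.09 SE). KCNQ1OT1, which silences an imprinted cluster, was at 8.15, 7.62, 8.30 and 14.9 CPM with DMSO and 22.5, 31.9, 24.2 and 27.5 CPM with YES1i, DMSO replicate 4 standing well above its group (log2 fold change 1.46 ± 0.21 SE). MIR210HG, host of a hypoxia-linked miRNA, rose from 3.71 ± 0.487 to 9.78 ± 1.74 CPM and AC073957.3 from 3.79 ± 0.434 to 10.9 ± 0.609 CPM. LINC02015 was at 24.8, 23.6, 28.8 and 26.1 CPM with DMSO and 4.44, 5.56, 6.55 and 6.39 CPM with YES1i, the largest noncoding fall under the rule (log2 fold change -2.16 ± 0.12 SE), and LINP1, linked to DNA end joining, fell from 9.09 ± 0.974 to 3.33 ± 0.618 CPM.

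The rule named the 5 transcription factors with the largest rises and the 5 with the largest falls that met its conditions. Factors were the genes to which the deposited annotation gives a transcription factor family. For TOX, HMGB3 and WDHD1 that family was HMG, and such a label alone does not show that a gene acts as a transcription factor. The risers were HLF, BHLHE41, MLXIPL, DBP and NPAS2, of which 4 belong to the clock list. Besides EGR1, the fallers were TOX (log2 fold change -1.32 ± 0.09 SE), ZNF488 (log2 fold change -1.28 ± 0.11 SE), HMGB3 (log2 fold change -1.18 ± 0.09 SE) and WDHD1 (log2 fold change -1.10 ± 0.09 SE). TOX, a regulator of lymphocyte development, went from 28.3 ± 2.15 to 11.3 ± 0.629 CPM, and ZNF488 from 12.1 ± 0.519 to 4.97 ± 0.332 CPM.

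The same 24 leading genes were read in MDA-MB-231, in a fit of all 16 libraries that tests the difference of the changes. Of the 24, 12 changed in the same direction in MDA-MB-231, 2 in the opposite direction and 10 were not called there. The difference between lines passed the test in 16 (edgeR, adjusted p under 0.05), against 31.1% of the 17647 genes tested in that fit. The 24 were chosen by the size of their SUM159 change, which is part of the difference. Their share therefore cannot show that strongly changed genes differ more often between lines. Of the 12 genes that rose in SUM159, 5 had a called difference. PDK4 changed by 3.16 here and by 3.13 in the other line (log2), PPARGC1A by 3.13 and 3.07, and GDF15 by 3.40 and 3.53. Their differences were 0.04 ± 0.16 SE, 0.06 ± 0.18 SE and -0.12 ± 0.19 SE, none of them called. IGFBP5 and AOC3, at -0.54 and 0.32 in MDA-MB-231 with no call, differed by 3.33 ± 0.65 SE and 2.40 ± 0.35 SE.

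Of the 12 genes that fell in SUM159, 11 had a called difference. LIPG rose in MDA-MB-231 by 2.12, a difference of -5.39 ± 0.14 SE with an edgeR adjusted p = 1.40e-22. XDH rose there by 0.62, differing by -3.31 ± 0.18 SE. AREG was at -0.06 in MDA-MB-231 (difference -2.85 ± 0.13 SE, adjusted p = 3.29e-16), DKK1 at -0.07 (difference -2.14 ± 0.09 SE), and SFN at 0.07, none of them called there. EGR1 fell in both, by 3.02 and 0.58, with a difference of -2.44 ± 0.23 SE. KRT5 and PAPPA2 had differences with SEs of 1.82 and 2.82, too wide for a reading. Line and culture medium cannot be told apart in this comparison.

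**Figure D5:**
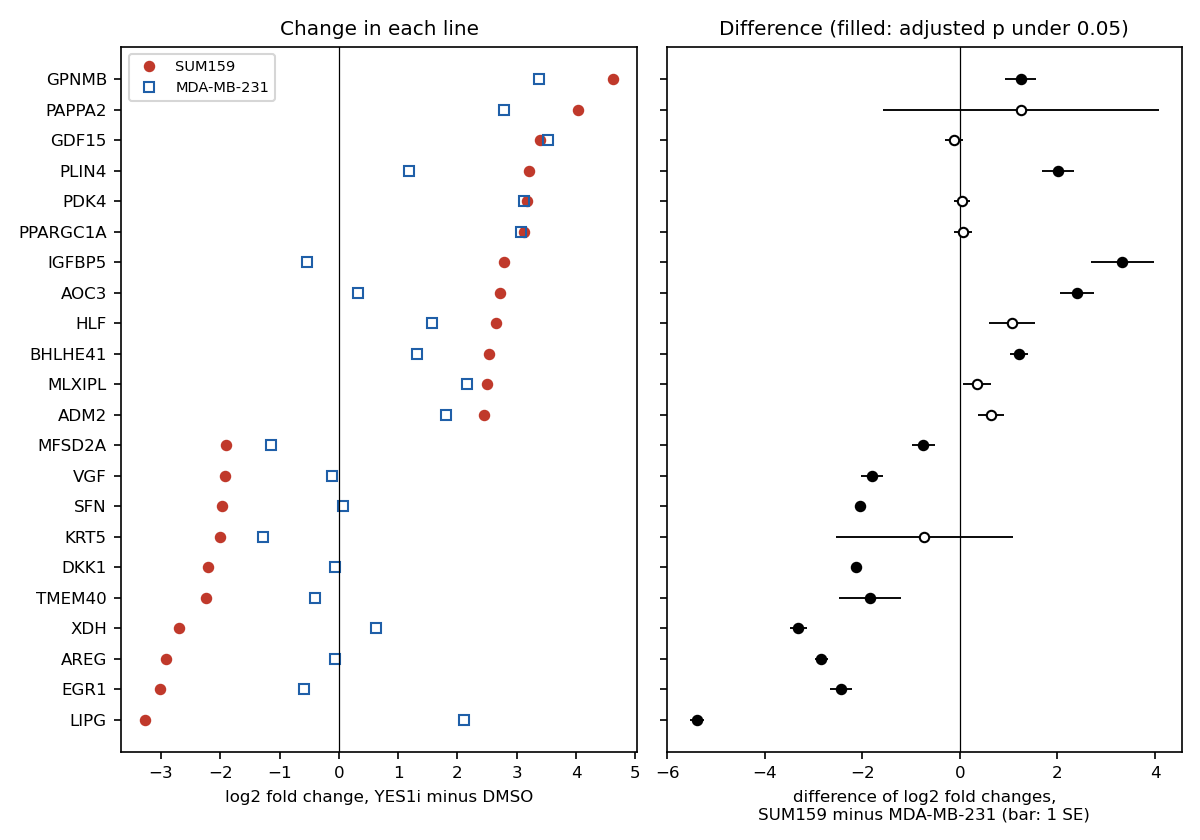
Left, log2 fold change (YES1i minus DMSO) of 22 of the leading genes in SUM159 (filled circles) and MDA-MB-231 (open squares). Right, the difference of the changes, SUM159 minus MDA-MB-231, with bars of 1 SE, filled where the adjusted p was under 0.05. Points of both lines nearly coincide for PDK4 and PPARGC1A, and LIPG has the largest difference at -5.39.

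Values of AC073957.3, AHRR, BLK, DBP, HAS3, HSPE1, ITGA7, KRT8, KRT18, KRT81, MT-ATP6, MT-CO3, NDUFB2, PLIN4, PSMB9, RFNG, SQSTM1, TAGLN, TOX, TYMS, ZEB1, ERBB2 and ESR1 are uncertain. Each overlaps a gene with at least 10% of its count, and how reads in overlaps or on opposite strands were counted could not be read from the labels. Of 134 genes named by rule, 64 overlap a gene on the opposite strand. Keratins, metallothioneins, histones, HLA genes and AKR1C2 have near-identical relatives that could share reads with them, and their values are uncertain too.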

How the data were processed

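Poly(A) RNA of 8 SUM159 libraries was compared. The authors deposited read counts per gene, and hg38, HISAT2 2.0.5 and featureCounts 1.5.0-p3 are named, per the submitters' processing notes. No source used here gives the annotation release or the rules for strand, overlaps and multi-mapped reads. Columns were matched to samples by the labels.

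Counts were used as deposited, without rounding. Genes passing filterByExpr in the 8 libraries were fitted with edgeR 4.0.16 (R 4.3.3, TMM, robust quasi-likelihood F test) and called at a Benjamini-Hochberg adjusted p under 0.05 over all tested genes. CPM are scaled by TMM, SE derives from F, and the difference between lines comes from a fit of 16 libraries. Lists were described by counts and medians, with no list test, and shares of counts compared by exact permutation. Replicate numbers were not used as pairs, as the labels do not give them as such. Same-numbered deviations correlated at -0.16, -0.14, -0.01 and -0.01, and others from -0.15 to 0.18. These values cannot tell whether same-numbered libraries shared a culture or day.

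The members and the lists were chosen with earlier results of these data known. By rule, the text names YES1 and its tested relatives, 12 protein-coding genes in each direction, ranked by size of change, and the 2 most changed members of each list. It also names 4 noncoding genes that rose and 2 that fell, 5 transcription factors in each direction, and line markers. Except for markers and YES1 relatives, these were called and averaged at least 5 CPM, and the largest changes and noncoding genes and factors had no overlap and were outside the lists left aside. All other genes were named after their values were seen. Promoters that the rule selects but that hold no match are named and not printed. Promoter letters are RefSeq's. Some genes that the rule selects are not reported here.

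On simulated counts (15606 genes, 50 per fold), 26% of 1.25-fold, 94% of 1.5-fold, 100% of 2-fold and 96% of 4-fold changes were recovered, with 5.95% false calls. The changed genes averaged at least 5 CPM and were split evenly between rises and falls. All other genes were left unchanged, whereas 52.9% were called in the data, so these rates need not hold there. Alternatives were DESeq2 1.42.0, limma-voom 3.58.1, scaling by RLE or by the upper quartile, no filter, a mean count of 10, all 16 libraries, a replicate block, an adjusted p under 0.01 and each library left out.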

Additional observations from a re-analysis of the deposited data

Results flagged for a closer look

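In 22 of 268 groups of 4 libraries of named genes, 1 library stood apart from its 3 group members by Dixon's criterion, which chance alone meets in about 1 in 20 groups. YES1i replicate 2 was that library in 10 of the 22. Among the genes reported here, that library lay above the other YES1i libraries for NDRG1 at 343 CPM (others 299 to 305) and SNAI2 at 90.9 CPM (others 64.1 to 68.7). That library lay below the other YES1i libraries for ADAMTS15 at 7.93 CPM (others 11.7 to 12.5), DUSP5 at 48.8 CPM (others 57 to 58.6), ERBB2 at 95.6 CPM (others 109 to 111), HMOX1 at 85.6 CPM (others 100.2 to 101), HSPE1 at 30.6 CPM (others 38.2 to 39.2), NDUFB2 at 35.8 CPM (others 53.03 to 54.2) and SRC at 71.2 CPM (others 83.9 to 85.8). Single other YES1i libraries stood apart for BLK in replicate 3 at 3.44 CPM (others 4.67 to 4.78), EFNB3 in replicate 1 at 13.9 CPM (others 10.4 to 10.99), IGFBP3 in replicate 4 at 16.9 CPM (others 19.5 to 19.9), NDUFB6 in replicate 1 at 33.4 CPM (others 25.9 to 26.6), SLC1A4 in replicate 1 at 50.4 CPM (others 41.4 to 42.5) and TGFBI in replicate 1 at 9092 CPM (others 8480 to 8565). Single DMSO libraries stood apart for ATP6V0D1 in replicate 2 at 51.0 CPM (others 48.5 to 48.9), BCL2 in replicate 3 at 21.6 CPM (others 19.4 to 19.8), CTSD in replicate 4 at 167 CPM (others 173 to 174), HLF in replicate 1 at 3.78 CPM (others 2.50 to 2.59), KCNQ1OT1 in replicate 4 at 14.9 CPM (others 7.62 to 8.30) and NDUFB6 in replicate 4 at 46.1 CPM (others 48.3 to 48.6).

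In 16 of the 24 genes with the largest changes, the log2 fold change in SUM159 differed from that in MDA-MB-231 by edgeR's test of the difference itself (adjusted p under 0.05, 16 libraries). The 24 were chosen by their SUM159 change, which is part of this difference. The difference, SUM159 minus MDA-MB-231, was positive for AOC3 (2.40), BHLHE41 (1.21), GPNMB (1.24), IGFBP5 (3.33) and PLIN4 (2.02). Among those reported here, it was negative for AREG (-2.85), DKK1 (-2.14), EGR1 (-2.44), LIPG (-5.39), MFSD2A (-0.75), SFN (-2.04), TMEM40 (-1.85), VGF (-1.80) and XDH (-3.31).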

How the results depend on the processing

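The 4 counts of changed genes stayed within 1.5 times their values under every alternative run, with 2901 (adjusted p under 0.01) to 5500 (upper quartile) genes higher and 3138 (upper quartile) to 4858 (no filter) lower outside the runs that leave out a library. Leaving out each library gave 3608 to 4009 higher and 3992 to 4460 lower. With the replicate number as a block 3547 genes were higher and 3892 lower, a block the labels do not support as a pairing. The count of genes whose change differed between lines was 5489, and 5273 (RLE), 5326 (upper quartile) or 4641 (replicate block). Upper quartile scaling moved the split of calls to 63.7% higher. Of 134 named genes, ERBB2 changed sign with upper quartile scaling (0.0104) and SPARC with no filter (-0.0174), neither of them called. Without each library in turn SPARC ranged from -5.84e-05 to 0.0546. In 22 runs of named genes a call was lost, for ATP6V0C, AXL, FRK, FYN, KRT8, MT-ATP6, MT1E, PSMB9 or YES1, and in 6 one was gained, for SPARC, SRC, XBP1 or ZEB1. Of list values, 144 moved and 2457 did not. The depth, at 3 counts, limits levels under 0.0834 to 0.187 CPM.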
